A study of Mus musculus with 4 samples.

Results

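The transcripts described here encode the mitochondrial respiratory chain and ATP synthase of the mouse. Members were all probe sets annotated to exactly 1 gene symbol that starts with Nduf, Uqcr, Cox4, Cox5, Cox6, Cox7, Cox8 or Atp5, or that is Sdha, Sdhb, Sdhc, Sdhd or Cycs. The rule took 183 probe sets of 91 genes, out of 45037 probe sets and 18193 genes on the arrays. After the dimmest 40% of all probe sets were left out, 160 member probe sets of 85 genes could be tested, among 27022 probe sets and 13718 genes in all. The genes Ndufs5, Ndufb4, Cox7b2, Cox8b, Ndufa4l2 and Cox7c had no probe set among those tested. A further 10 probe sets with such names carry several symbols and are outside the rule.

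The ureter group held 3 arrays of whole ureters from male FVB/N mice at postnatal day 1 (Theiler stage 27) with an SMGA/EGFP transgene, in which the promoter of smooth muscle gamma-actin drives a green fluorescent protein. The reference was 1 array of pooled whole newborn mice of that strain, day and stage, of both sexes and without the transgene. Tissue, sex, transgene and pooling therefore change together and cannot be told apart. All RNA went through 2 rounds of amplification before hybridization to Affymetrix MOE430 arrays. The ureter samples were not pooled, but the labels do not tie them to different animals. The p-values below thus rest on the variation between 3 arrays, part or all of which may be technical.

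The respiratory chain sits in the inner mitochondrial membrane. Complex I takes electrons from NADH and complex II from succinate, complex III passes them to cytochrome c, and complex IV hands them to oxygen. Complexes I, III and IV pump protons, and ATP synthase (complex V) makes ATP as the protons flow back. Skeletal muscle, heart and brown fat are among the tissues richest in mitochondria, and several subunits of complex IV have a separate gene copy for muscle. The ureter is a tube of urothelium and smooth muscle.

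The arrays carry markers of the labelled tissue: 6 of 8 smooth muscle genes and 7 of 8 urothelial genes were called higher in the ureters than in the reference. Values are quantile-normalized log2 intensities, and a difference is the ureter mean minus the reference, with the standard error (SE) of a limma fit. Its 2 residual degrees of freedom come from the ureters, and the single reference array is taken to vary as they do. A probe set was called at a Benjamini-Hochberg adjusted p under 0.05 over all tested probe sets. Background was the highest of 27 probe sets for bacterial transcripts on each array. Of the 183 member probe sets, 16, 29 and 23 lay at or below it in ureters 1, 2 and 3, and 25 in the reference.

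In quantile-normalized arrays most genes of the respiratory chain lay modestly below the whole-body reference in the ureters, a direction that centring each array on its median turned round, whereas the muscle isoform genes Cox6a2 and Cox7a1 lay far below it in both scalings and in the scaling as deposited. The median difference of the 160 tested member probe sets was -0.58 (interquartile range -0.86 to -0.19), against 0.11 for all tested probe sets, and it turned to 0.11 against 0.60 in the median-centred arrays. The gap between the medians, -0.69 as normalized here, was -0.48 both with median-centred arrays and with the scaling as deposited. In a whole tissue, fewer cells of a type and less RNA per cell cannot be told apart. Only 3 member probe sets were called: those of Cox6a2 and Cox7a1 fell, which is 1.25% of members against 3.56% of all probe sets called lower, and 1 dim probe set of Ndufab1 rose, 0.625% against 2.76%. By gene, taking the probe set with the highest mean of both group means, 2 of 85 fell and none rose by limma, against 4.85% and 3.04% of all genes. At an unadjusted limma p under 0.05, 32 of the 85 (37.6%) were lower and 2 (2.35%) higher. The shares of all tested probe sets at that p were 11.0% lower and 13.2% higher. Without ureter 3 no member was called, and the calls over all probe sets dropped to 49 higher and 268 lower, against 747 and 961. At an unadjusted limma p under 0.05, 37 of 158 tested members (23.4%) were then lower, against 8.6% of all probe sets.

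The counts that follow were chosen after member values were seen. All 3 ureters lay below the reference for 113 members (70.6%), against 29.3% of all tested probe sets, and all 3 lay above it for 23 (14.4%), against 39.1%. The ureters overlapped the reference for the other 24. In median-centred arrays the count below the reference was 18 (11.2%), against 17.9% of all probe sets, so members were then below it less often. At an unadjusted limma p under 0.05, 50 members (31.2%) were lower, against 11.0% of all probe sets, and 5 (3.12%) were higher, against 13.2%. The 50 became 3 in median-centred arrays (1.88%, against 7.13% of all probe sets). Without an intensity trend in the fit they became 18 (11.2%, against 10.5% of all), close to the general share.

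The member median was -0.68 in ureter 1, -0.66 in ureter 2 and -0.35 in ureter 3. Ureter 3 was thus nearest to the reference, and 122 of its 160 member values (76.2%) lay below it, against 43.5% of all tested probe sets. Over the members, the correlation of log2 values between pairs of ureters was 0.964 to 0.974, as a description of 160 probe sets that share their arrays. Each pair of ureters had 12 members over 2-fold apart.

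**Figure D1:**
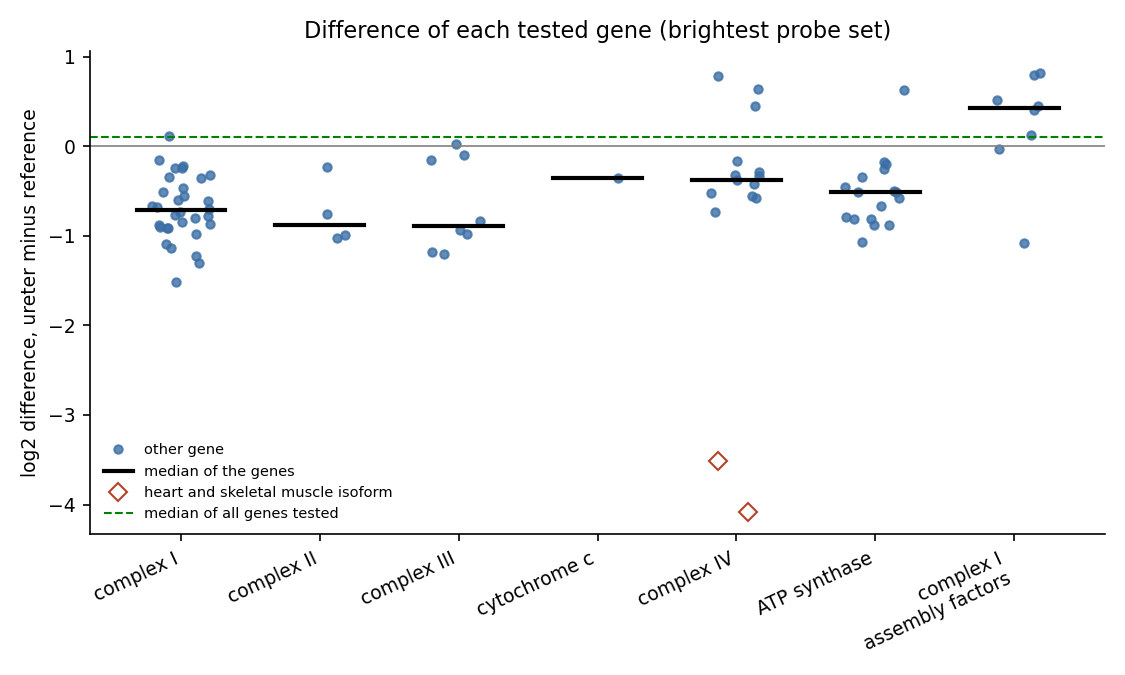
Difference of each tested gene (log2, ureter minus reference, brightest probe set), by complex; black bars are medians over genes, the green dashed line is the median of all genes tested (0.10) and open diamonds are heart and skeletal muscle isoforms. The bars of complexes I to V and of cytochrome c lie between -0.89 and -0.36, while over probe sets the medians of complexes I to V turn to between 0.006 and 0.17 when arrays are median-centred, and the complex I assembly factors lie at 0.43.

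The muscle isoform genes Cox6a2 and Cox7a1 had the largest differences of the 85 tested genes. Cox6a2 encodes the heart and skeletal muscle form of subunit VIa, and Cox6a1 the general form. The deposited intensities of Cox6a2 were 220.1, 317 and 128 in ureters 1, 2 and 3, against 4034 in the reference. On the normalized log2 scale these were 8.31, 8.19 and 7.41 in the ureters, against 12.06 in the reference. No ureter came near the reference, and Cox6a2 fell by 4.09 on the log2 scale (SE 0.54, 17.0-fold lower, adjusted p = 0.0157). The intensities of ureters 2 and 3 lay close to background, which was 57.2, 212 and 101.5 in ureters 1, 2 and 3. A second, dimmer Cox6a2 probe set was at background in 2 of the 3 ureters and gave -4.56 without passing (adjusted p = 0.0737). Without ureter 3 the brighter one did not pass either (adjusted p = 0.0576).

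Cox7a1 encodes the heart and skeletal muscle form of subunit VIIa, which brown fat also uses, and Cox7a2 the general form. Its deposited intensities were 41.3, 79.0 and 61.6 in the ureters, all at background, against 1060.0 in the reference. Cox7a1 was therefore lower by at least 6.66-fold in the ureters (log2 difference -3.51, SE 0.66, adjusted p = 0.0358). The call was lost with the scaling as deposited (adjusted p = 0.0508), with no filter on dim probe sets (0.0651) and without ureter 3 (0.113).

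Cox8b is the heart and skeletal muscle form of subunit VIII, also known from brown fat, and Cox8a the general form. Cox8b was too dim on average to be tested. Its deposited intensities were 3.79, 27.4 and 12.1 in the ureters, all at background, against 821 in the reference, a difference of at least 4.87-fold lower. With no filter on dim probe sets its fitted log2 difference was -4.69 (SE 0.73, adjusted p = 0.0411), which rests on background values in the ureters. All 3 muscle isoforms were thus above background in the newborn body, and 2 of them were at background in every ureter.

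By brightest probe set the general isoforms were above background on all arrays, and none was called. A dim Cox8a probe set, not tested, was at background in the reference and in 2 ureters. Cox6a1 had log2 values of 14.50, 14.74 and 15.03 in the ureters, against 15.33 in the reference (difference -0.57, SE 0.24, adjusted p = 0.206). Cox7a2 had 14.93, 14.59 and 15.48 in the ureters, against 15.52 in the reference (difference -0.52, SE 0.33, adjusted p = 0.395). Neither passed, and in median-centred arrays they lay at 0.019 and 0.006. Cox8a had 10.20, 10.89 and 10.01 in the ureters, against 10.65 in the reference (difference -0.28, adjusted p = 0.773), from a probe set open to cross-hybridization, and 0.30 in median-centred arrays; its other tested probe set gave -1.02 (adjusted p = 0.183).

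Within each array the muscle isoform was set against its general partner, which shows unequal change and not levels. The log2 difference Cox6a2 minus Cox6a1 was shifted by -2.92, -3.27 and -4.35 in ureters 1, 2 and 3 relative to the reference (mean -3.51 ± 0.74, SD, n = 3). Every ureter was shifted the same way, but all 3 shifts are taken from the same single reference array and are not independent. The SD holds the spread between ureters only and no variation of the reference. Cox7a1 and Cox8b were at background in every ureter, so their shifts are bounds, taken with the muscle isoform at each ureter's background. For Cox7a1 against Cox7a2 the shift was -2.60, -1.34 and -2.69 or lower in ureters 1, 2 and 3. For Cox8b against Cox8a it was -2.29, -2.06 and -1.64 or lower, and -1.77, -0.73 and -1.28 or lower against the other Cox8a probe set. An exact permutation test over 4 arrays cannot go below p = 0.25, so none is given.

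**Figure D2:**
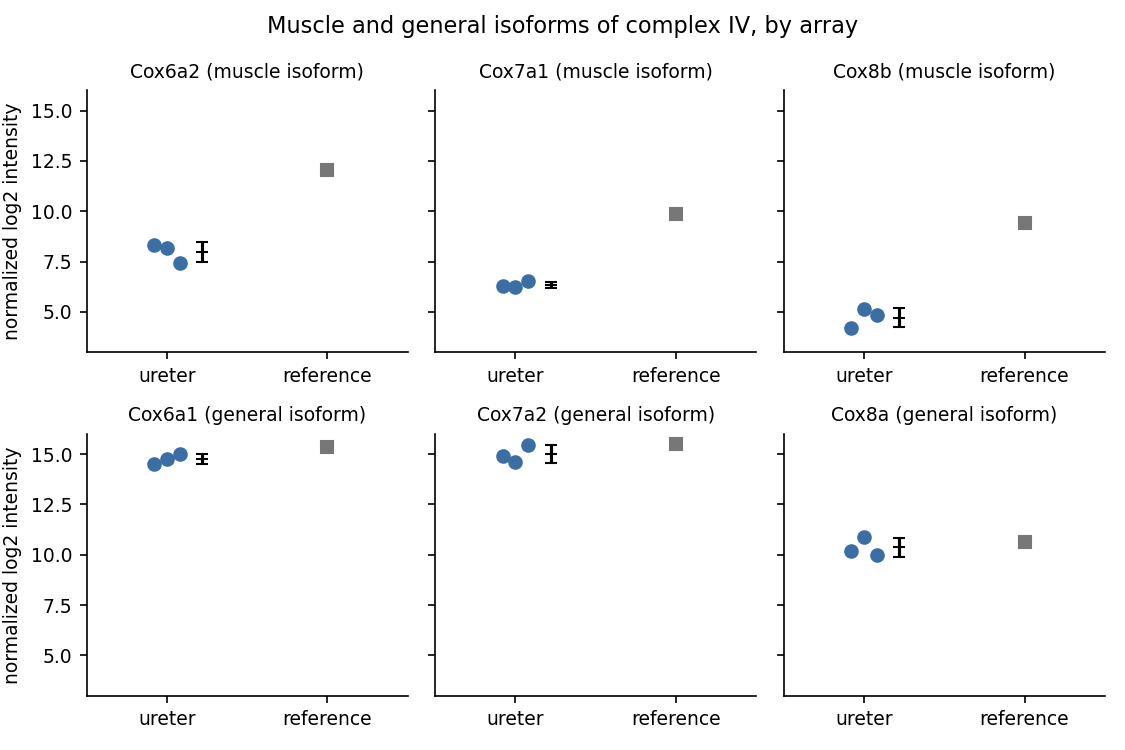
Normalized log2 intensity of the muscle (top) and general (bottom) isoforms of complex IV subunits on each array, with the 3 ureters as circles (mean and SD beside them, n = 3) left of the reference (square). Cox6a2 lies between 7.41 and 8.31 in the ureters and at 12.06 in the reference, while the ureter values of Cox6a1, 14.50 to 15.03, lie close to its reference value of 15.33.

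Promoter sequences are shown for the muscle and general isoforms of the pairs set side by side above. They are the 250 bases before the RefSeq start (GRCm38.p6) for the genes with an entry, each 5′ to 3′ on the gene's strand. Cox6a2 had no entry, so its promoter is not shown. Capitals mark the motif GCGCANGCGC of NRF1, the motif CCGGAAG of ETS factors such as GABP, and the E-box CANNTG, which the myogenic factors bind among others, searched on both strands. No 2 matches overlap in these sequences. Cox7a1 lies at chr7:30183921-30184170 (+), Cox8b at chr7:140900447-140900696 (-), Cox6a1 at chr5:115348959-115349208 (-), Cox7a2 at chr9:79759854-79760103 (-) and Cox8a at chr19:7217617-7217866 (-).
Cox7a1: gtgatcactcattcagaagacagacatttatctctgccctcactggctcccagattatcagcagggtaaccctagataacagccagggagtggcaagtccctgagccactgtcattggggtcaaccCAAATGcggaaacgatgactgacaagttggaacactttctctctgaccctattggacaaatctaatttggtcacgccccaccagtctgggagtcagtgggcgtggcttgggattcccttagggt
Cox8b: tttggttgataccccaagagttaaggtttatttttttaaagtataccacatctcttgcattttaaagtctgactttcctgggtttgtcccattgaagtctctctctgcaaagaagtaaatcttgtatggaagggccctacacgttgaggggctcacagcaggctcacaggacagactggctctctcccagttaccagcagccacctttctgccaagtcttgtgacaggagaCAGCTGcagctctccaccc
Cox6a1: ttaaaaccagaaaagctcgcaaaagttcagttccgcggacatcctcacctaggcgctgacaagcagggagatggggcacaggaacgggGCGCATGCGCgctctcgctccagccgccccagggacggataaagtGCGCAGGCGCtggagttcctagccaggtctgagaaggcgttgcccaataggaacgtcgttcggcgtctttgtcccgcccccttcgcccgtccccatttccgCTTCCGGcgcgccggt
Cox7a2: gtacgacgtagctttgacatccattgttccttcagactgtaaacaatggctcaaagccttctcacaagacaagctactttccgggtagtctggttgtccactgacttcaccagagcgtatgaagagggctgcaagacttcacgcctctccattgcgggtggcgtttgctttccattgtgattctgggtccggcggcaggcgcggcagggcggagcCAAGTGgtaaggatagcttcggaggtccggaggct
Cox8a: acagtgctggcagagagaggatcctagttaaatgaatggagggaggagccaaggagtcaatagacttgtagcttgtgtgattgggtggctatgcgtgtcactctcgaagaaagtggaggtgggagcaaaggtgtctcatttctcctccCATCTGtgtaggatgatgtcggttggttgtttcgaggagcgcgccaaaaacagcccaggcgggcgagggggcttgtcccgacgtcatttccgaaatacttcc

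Cox6a1 holds 2 NRF1 matches, 162 and 117 bases before the start, and 1 ETS match 16 bases before it. The other 4 promoters hold 1 E-box each and neither of the other motifs, 124 bases before the start in Cox7a1, 19 in Cox8b, 35 in Cox7a2 and 102 in Cox8a. NRF1 and GABP are known regulators of nuclear genes for the respiratory chain. Of the 91 member genes 75 had an entry; 16% of these held the NRF1 motif, against 4.23% of 27025 genes, and 18.7% held the ETS motif, against 7.83%. The E-box was in 65.3% of member promoters and 69.3% of all. A match is a description of letters and not a binding site.

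The other tissue isoforms were dim or close to the reference. Cox4i2, the lung and oxygen-responsive form of subunit IV, had log2 values of 6.93, 7.46 and 7.10 in the ureters, against 7.33 in the reference, and 2 of the 3 ureters were at background (adjusted p = 0.914). Its general partner Cox4i1 had 14.89, 14.79 and 14.94 in the ureters, against 15.25 in the reference (difference -0.38, SE 0.17, adjusted p = 0.238), and lay at 0.20 in median-centred arrays. Cox6b2, a testis form, had 7.84, 6.72 and 8.06 in the ureters, against 6.76 at background in the reference (difference 0.79, adjusted p = 0.603). It was at background in 1 ureter and among the 3 tested member genes whose brightest probe set varied most between ureters (SD 0.72). Cox6b1, its general partner, differed by -0.42 (adjusted p = 0.313).

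Cox8c, another testis form, differed by -0.34 (adjusted p = 0.690). Cox7b2 and Ndufa4l2, a hypoxia-induced paralog of the complex IV subunit gene Ndufa4 known from pericytes, were at background on all 4 arrays. Ndufa4 itself had 13.39, 12.77 and 13.32 in the ureters, against 13.48 in the reference (adjusted p = 0.611). The within-array shift of Cox6b2 against Cox6b1 was 1.21 ± 0.91, that of Cox4i2 against Cox4i1 0.21 ± 0.33 and that of Cox8c against Cox8a -0.052 ± 0.36. For Cox4i2 and Cox8c the spread exceeded the mean, and for Cox6b2 it came close to it. Cox6b2 was at background in the reference and 1 ureter, and Cox4i2 in 2 ureters. The shifts of these 2 genes thus rest partly on background values. Ndufa4l2 was at background everywhere, so its shift against Ndufa4 is not measured.

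Complex I, the largest enzyme of the chain, had 67 tested probe sets with a median of -0.66, and all 3 ureters lay below the reference in 50 of them and above it in 5, against 29.3% and 39.1% of all tested probe sets. The median is 0.15 in median-centred arrays, against 0.60 for all probe sets. The flavin and iron-sulfur centres of electron transfer lie in core subunits, though not in all of them. The 16 tested probe sets of core subunits come from 6 genes, so many are repeat measures of the same gene. All 16 had a negative difference (median -0.80, or 0.018 in median-centred arrays), against 12057 of all 27022 tested probe sets. In 14 of the 16 every ureter lay below the reference, against 29.3% of all. Ndufs3, a core subunit gene, had 13.42, 13.39 and 13.43 in the ureters, against 14.21 in the reference (difference -0.80, SE 0.22, adjusted p = 0.0915). Ndufv2, which encodes a subunit of the NADH-oxidizing module, had 13.67, 13.93 and 13.99 in the ureters, against 14.71 in the reference (difference -0.85, SE 0.23, adjusted p = 0.0855). Both groups of 3 were tight and stood apart from the reference, yet neither gene passed over all probe sets; in median-centred arrays Ndufs3 turned to 0.016. Ndufs3 and Ndufv2 were chosen after their values were seen.

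The 51 tested probe sets of accessory subunits had a median of -0.59, or 0.19 in median-centred arrays. Ndufa9, which stabilizes the junction between the arms of the enzyme, had 14.01, 13.86 and 13.62 in the ureters, against 14.81 in the reference (difference -0.98, SE 0.23, adjusted p = 0.0648). Ndufb8 and Ndufb10, of the membrane arm, differed by -1.22 (SE 0.29, adjusted p = 0.0634) and -1.30 (SE 0.31, adjusted p = 0.0664). A dimmer Ndufb8 probe set gave 0.79 (adjusted p = 0.321). These 3 genes, also chosen after their values were seen, did not pass. Ndufa9 and Ndufb10 did when limma was run by gene, with probe sets averaged (adjusted p = 0.0344 and 0.0314). Each has a single probe set, so its difference was unchanged and only the fit over genes differed. The smallest changes among complex I genes were in Ndufa2 (0.12, adjusted p = 0.801) and Ndufb3 (-0.15, adjusted p = 0.825).

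Ndufab1, the mitochondrial acyl carrier protein and an accessory subunit of complex I, gave the only higher call. One of its probe sets had 10.04, 9.70 and 9.47 in the ureters, against 6.37 at background in the reference. The ureters exceeded the reference by at least 6.44-fold (log2 difference 3.37, SE 0.48, adjusted p = 0.0189). The brightest Ndufab1 probe set had 11.15, 10.59 and 11.11 in the ureters, against 11.41 in the reference, and lay below it (difference -0.46, adjusted p = 0.545). Another gave -0.59, so the probe sets of Ndufab1 disagree and the gene's direction is uncertain. The gene was chosen after its values were seen. By brightest probe set, Ndufb1 varied most between ureters of the 85 tested member genes, with 5.31 at background in ureter 1, 7.75 in ureter 2 and 8.13 in ureter 3, against 8.20 in the reference (SD 1.53).

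Complex II is both a citrate cycle enzyme and an entry to the chain. Its iron-sulfur subunit gene Sdhb had 13.62, 13.73 and 13.93 in the ureters, against 14.79 in the reference (difference -1.03, SE 0.23, adjusted p = 0.0531). The ureters lay close together and well below the reference, just outside the threshold. Sdhb passed when limma was run by gene (adjusted p = 0.0264), with an unchanged difference because it has a single probe set. The flavoprotein gene Sdha had 14.78, 14.38 and 14.39 in the ureters, against 15.27 in the reference (difference -0.76, SE 0.23, adjusted p = 0.109), and passed only without ureter 1 (adjusted p = 0.0432). The membrane anchor genes were Sdhd, at -0.99 (SE 0.34, adjusted p = 0.142), and Sdhc, at -0.23 (SE 0.31, adjusted p = 0.712). Each anchor gene had a dimmer probe set on the other side of 0, at 0.36 for Sdhd and 1.03 for Sdhc. In median-centred arrays Sdhc turned to 0.60.

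Complex III had 14 tested probe sets with a median of -0.71, 8 of them with every ureter below the reference and none with every ureter above, against 29.3% and 39.1% of all. The median was 0.006 in median-centred arrays and -0.43 with no filter on dim probe sets. Uqcrc1 and Uqcrc2 encode its large core proteins. Uqcrc1 had 13.16, 13.55 and 13.44 in the ureters, against 14.56 in the reference (difference -1.18, SE 0.25, adjusted p = 0.0506). Uqcrc2 had 13.89, 14.09 and 14.20 in the ureters, against 15.05 in the reference (difference -0.98, SE 0.21, adjusted p = 0.0509). Both lay at the edge of the threshold. Uqcrc1 passed without ureter 2 (0.0446) and when limma was run by gene (0.0243), where its single probe set kept the same difference. They were chosen after their values were seen. Uqcrb differed by 0.021 and Uqcrh, the hinge protein gene, by -0.10, the smallest changes of the complex, and dimmer probe sets of these genes gave -0.93 and -0.73. Uqcrh spanned 10.08 to 12.12 among the ureters (SD 1.03), around a reference of 11.27.

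Cytochrome c, the mobile electron carrier encoded by Cycs, had 4 tested probe sets, all with a negative difference (-0.36 to -1.11). The brightest had 14.87, 15.08 and 15.10 in the ureters, against 15.37 in the reference (difference -0.36, SE 0.17, adjusted p = 0.278), and turned to 0.22 in median-centred arrays.

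The subunit genes of complex IV outside the tissue isoforms had a median of -0.56 over 22 probe sets (0.097 in median-centred arrays), 16 of them with every ureter below the reference and 5 with every ureter above, against 29.3% and 39.1% of all. The 5 came from Cox6c and Cox7a2l. Cox7a2l, which encodes the factor that joins complexes III and IV into supercomplexes, had 15.53, 15.16 and 15.26 in the ureters, against 14.68 in the reference (difference 0.64, SE 0.20, adjusted p = 0.116). Its other probe sets gave 0.74 (adjusted p = 0.0668) and 0.31. Cox6c, a small nuclear-encoded subunit gene chosen after its values were seen, had 14.64, 14.80 and 14.87 in the ureters, against 14.32 in the reference (difference 0.45, SE 0.19, adjusted p = 0.210). Neither passed, but every ureter lay above the reference for both, unlike most of the set. Cox7c, also chosen after its values were seen, had only dim probe sets with 1 symbol, and 1 of these was at least 3.63-fold higher in the ureters; it was not tested, and without a filter its adjusted p was 0.0765.

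ATP synthase had 29 tested probe sets with a median of -0.51, 26 of them with every ureter below the reference and 3 with every ureter above, against 29.3% and 39.1% of all; in median-centred arrays the median was 0.089. Atp5a1 and Atp5b, the catalytic head genes, differed by -0.34 (SE 0.14, adjusted p = 0.209) and -0.46 (SE 0.20, adjusted p = 0.232). They were chosen after their values were seen, and turned to 0.12 and 0.071 in median-centred arrays. Atp5g1, Atp5g2 and Atp5g3 encode the same mature c subunit of the rotor ring. Atp5g1 had 10.45, 10.60 and 10.80 in the ureters, against 11.69 in the reference (difference -1.07, SE 0.37, adjusted p = 0.149). Atp5g2 differed by -0.51 (SE 0.37, adjusted p = 0.462) and Atp5g3 by -0.26 (SE 0.15, adjusted p = 0.339), and these turned to 0.34 and 0.16 in median-centred arrays. The differences between these 3 genes were not tested.

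The smallest changes in ATP synthase were those of Atp5c1, the central stalk gene (-0.17, adjusted p = 0.536), and Atp5pb, a peripheral stalk gene (-0.20, adjusted p = 0.578). Atp5j, which encodes coupling factor 6 of the peripheral stalk, went the other way. It had 14.37, 14.04 and 14.41 in the ureters, against 13.65 in the reference (difference 0.63, SE 0.24, adjusted p = 0.178; chosen after its value was seen). It was the only gene of ATP synthase whose brightest probe set lay above the reference in every ureter.

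The complex I assembly factors, which help build the enzyme without being part of it, stood on the other side. Their 10 tested probe sets had a median of 0.43, and in 8 of them every ureter lay above the reference, against 39.1% of all probe sets. None was called by limma (1 was higher and 1 lower at an unadjusted p under 0.05), and their median was 0.22 as deposited and 0.95 in median-centred arrays. Ndufaf1 had 10.34, 9.89 and 10.55 in the ureters, against 9.44 in the reference (difference 0.82, SE 0.45, adjusted p = 0.323). Ndufaf4 had 13.44, 13.37 and 14.14 in the ureters, against 14.73 in the reference (difference -1.08, SE 0.35, adjusted p = 0.127), while its dimmer probe set gave 0.20. Ndufaf1 and Ndufaf4 were chosen after their values were seen. The smallest changes were in Ndufaf5 (-0.035) and Ndufaf6 (0.12). The assembly factor probe sets were dimmer than those of complex I, with a median log2 level of 10.42 against 12.74. All 28 members at a level of 9 to 11, assembly factors among them, had a median difference of -0.17. The difference between assembly factors and subunits was not tested, nor was the part of brightness in it.

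Where a gene had several tested probe sets, they often differed. Of 50 such genes 14 had probe sets on both sides of 0, none had calls in opposite directions, and the median range within a gene was 0.42.

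The negative differences were found mainly among bright probe sets. Among the brightest 25% of the tested probe sets, 104 members had a median of -0.67, against 0.093 for all probe sets of that brightness. Every ureter lay below the reference for 90 of the 104 (86.5%), against 27.3% of all in that class. In the next brightest 25%, 30 members had a median of -0.41, and in the 2 dimmer classes 14 and 12 members had medians of 0.32 and -0.042. The 16 members with a mean log2 level of 15 or more had a smaller median, -0.35. With the scaling as deposited the medians of the brightest class were -0.66 for members and 0.17 for all, and in median-centred arrays 0.071 and 0.90. The direction of the members thus depends on the scaling, and the gap to probe sets of like brightness was -0.77, -0.82 and -0.82 in the 3 scalings.

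**Figure D3:**
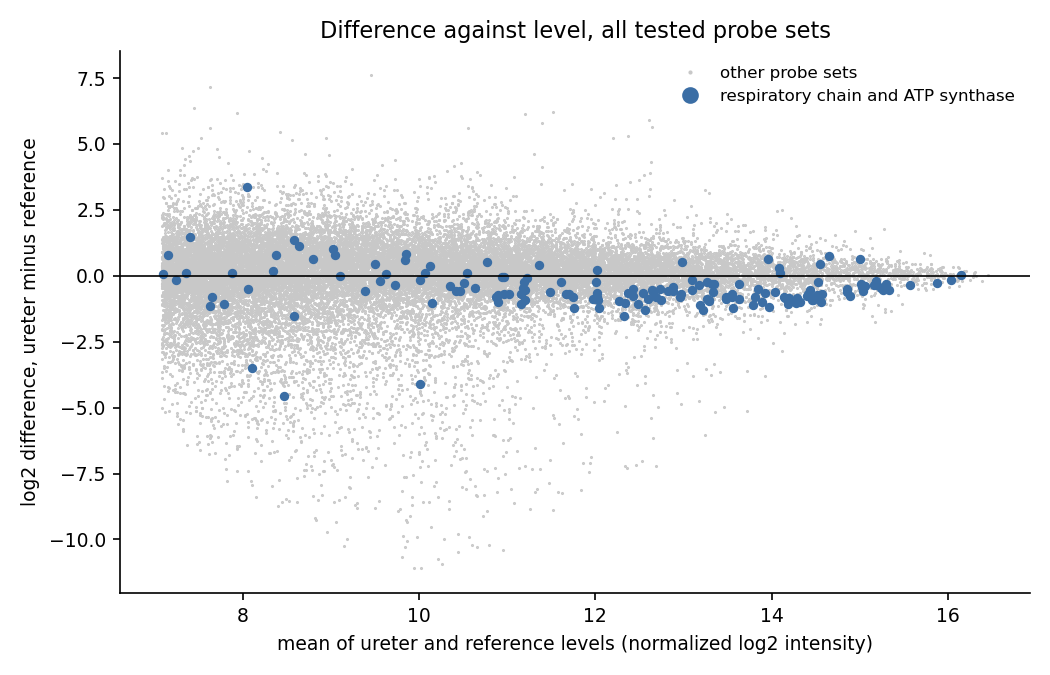
Log2 difference (ureter minus reference) against the mean of the ureter and reference levels (normalized log2 intensity) for 160 member probe sets (blue) and all other tested probe sets (grey). Above a level of about 11, most members lie below 0, with quantile-normalized arrays, while the grey points spread around a median near 0.11.

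**Figure D4:**
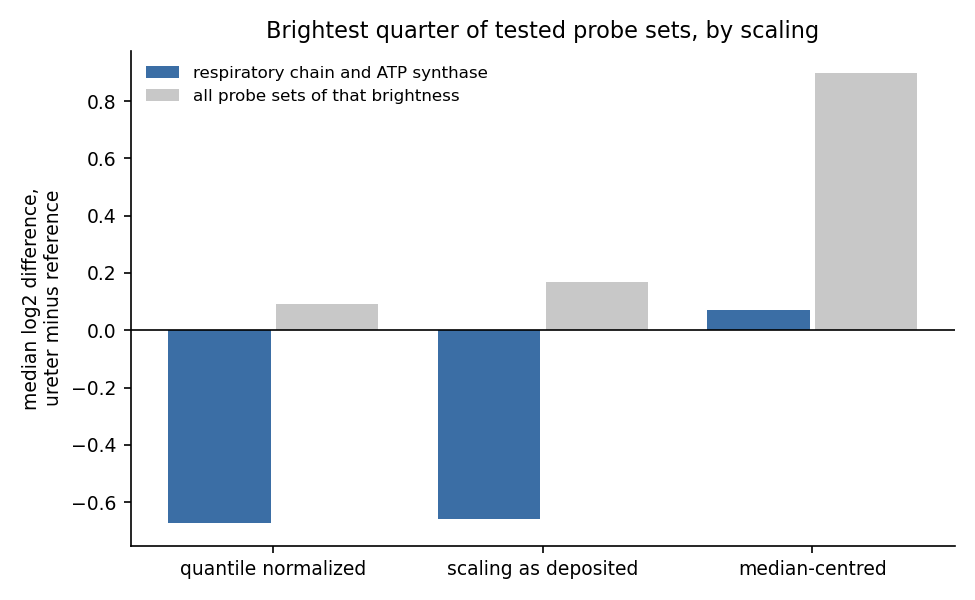
Median log2 difference (ureter minus reference) in the brightest 25% of tested probe sets, for members (blue bars) and all probe sets of that brightness (grey bars), under 3 scalings of the arrays. The member bar is -0.67, -0.66 and 0.071 and the bar of all probe sets 0.093, 0.17 and 0.90, so the sign turns with median-centring while members stay lower.

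Other mitochondrial pathways were set beside the chain. The counts of these lists and of the marker lists stand against 4.85% of all tested genes called lower and 3.04% called higher. Of 14 tested genes of the citrate cycle 2 fell and none rose, with a median of -0.65 (0.003 in median-centred arrays). Idh3a, the catalytic subunit gene of isocitrate dehydrogenase, had 13.35, 12.98 and 13.31 in the ureters, against 14.97 in the reference (difference -1.76, SE 0.26, adjusted p = 0.0192). Suclg1, of succinyl-CoA ligase, fell by 0.90 (SE 0.19, adjusted p = 0.0473). Of 12 genes of fatty acid oxidation 1 fell, with a list median of -0.87 (-0.29 in median-centred arrays): Etfdh, which passes electrons from fatty acid oxidation to the ubiquinone pool, at -1.66 (SE 0.34, adjusted p = 0.0450). The calls depended on the processing. Idh3a lost its call in median-centred arrays (adjusted p = 0.259), with no intensity trend (0.0839) and without ureter 3 (0.0853). Etfdh lost its call in median-centred arrays (0.437), as deposited (0.0624), with an offset of 1 (0.0508), with no filter (0.0683), with no trend (0.119) and without ureter 3 (0.142). Suclg1 lost its call under those 6 settings (0.746, 0.0594, 0.0514, 0.0936, 0.219 and 0.189) and without ureter 1 (0.0554) or 2 (0.0505).

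Of 8 genes that exchange nucleotides and phosphate 1 fell (median -0.47, or 0.031 in median-centred arrays). This was Ckmt2, the mitochondrial creatine kinase of heart and skeletal muscle, with 5.64, 6.12 and 3.79 in the ureters, all at background, against 13.24 in the reference, at least 69.4-fold lower (adjusted p = 0.0152, but 0.0517 with an offset of 1). Of 28 assembly genes outside the symbol rule 1 fell, the complex III assembly gene Ttc19 (-2.05, SE 0.40, adjusted p = 0.0394), which gave -0.20 when its probe sets were averaged (adjusted p = 0.788). Ttc19 also lost its call as deposited (0.0501), in median-centred arrays (0.215), with no filter (0.0590), with no trend (0.0625), without ureter 1 (0.0556) and without ureter 3 (0.168). That list's median was -0.031 (0.72 in median-centred arrays). None of 11 regulators of mitochondrial biogenesis was called by limma (median -0.086, or 0.47 in median-centred arrays), and 1 was higher and 1 lower at an unadjusted p under 0.05. Among them, and chosen after their values were seen, Nrf1 differed by -1.94 (adjusted p = 0.115) and Gabpa by 0.86 (adjusted p = 0.123).

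Markers of muscle and brown fat were lower in the ureters too. Of 20 skeletal and cardiac muscle genes 14 fell and 1, the cardiac troponin T gene Tnnt2, rose (1.18, adjusted p = 0.0404). The median was -5.10, and the summed linear level of the list was 55300 to 59700 in the ureters, against 531000 in the reference. Myl1 and Mylpf, fast skeletal muscle myosin light chain genes, differed by -7.46 (adjusted p = 0.0152) and -7.09 (adjusted p = 0.00575). The myoglobin gene Mb, Nppa and Tnni3 were at background in every ureter. Of 4 brown fat genes 3 fell (median -4.94): Ucp1, the uncoupling protein of brown fat, was at background in every ureter and at least 284-fold lower (adjusted p = 0.00480), and Cidea was 79.4-fold lower (adjusted p = 0.00778). The summed level of brown fat genes was 688 to 1040 in the ureters, against 58900 in the reference. The part of these tissues in the members' differences was not tested.

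Of 8 smooth muscle genes 6 rose, and of 8 urothelial genes 7 rose. Cnn1, the smooth muscle calponin gene, rose by 3.75 (SE 0.39, adjusted p = 0.00960) and Myocd, the coactivator of smooth muscle genes, by 4.18 (adjusted p = 0.0412). Des, the desmin gene that all muscle types use, lay below the reference in every ureter without passing (-1.36, SE 0.37, adjusted p = 0.0909; chosen after its value was seen). The urothelial genes Snx31 and Upk3a were higher, Snx31 by at least 74.0-fold and Upk3a by a measured 55.4-fold (adjusted p = 0.00480 and 0.00512). Of 6 pericyte genes 1 rose, Rgs5 (2.47, adjusted p = 0.00605). None of 11 kidney tubule genes was called by limma (median -0.57; 1 was lower at an unadjusted p under 0.05), but their summed level was 2060 in ureter 1, 23000 in ureter 2 and 14700 in ureter 3, against 10800 in the reference. The member medians of these ureters were -0.68, -0.66 and -0.35, and the part of kidney tubule RNA in them was not tested. Without ureter 3, Tnnt2 (adjusted p = 0.178), Myl1 (0.0603), Myocd (0.141) and Cnn1 (0.0576) lost their calls. Tnnt2 also did so with no filter (0.0758), with no trend (0.164) and without ureter 1 (0.0561), and Myocd with no filter (0.0691) and with no trend (0.0968).

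**Figure D5:**
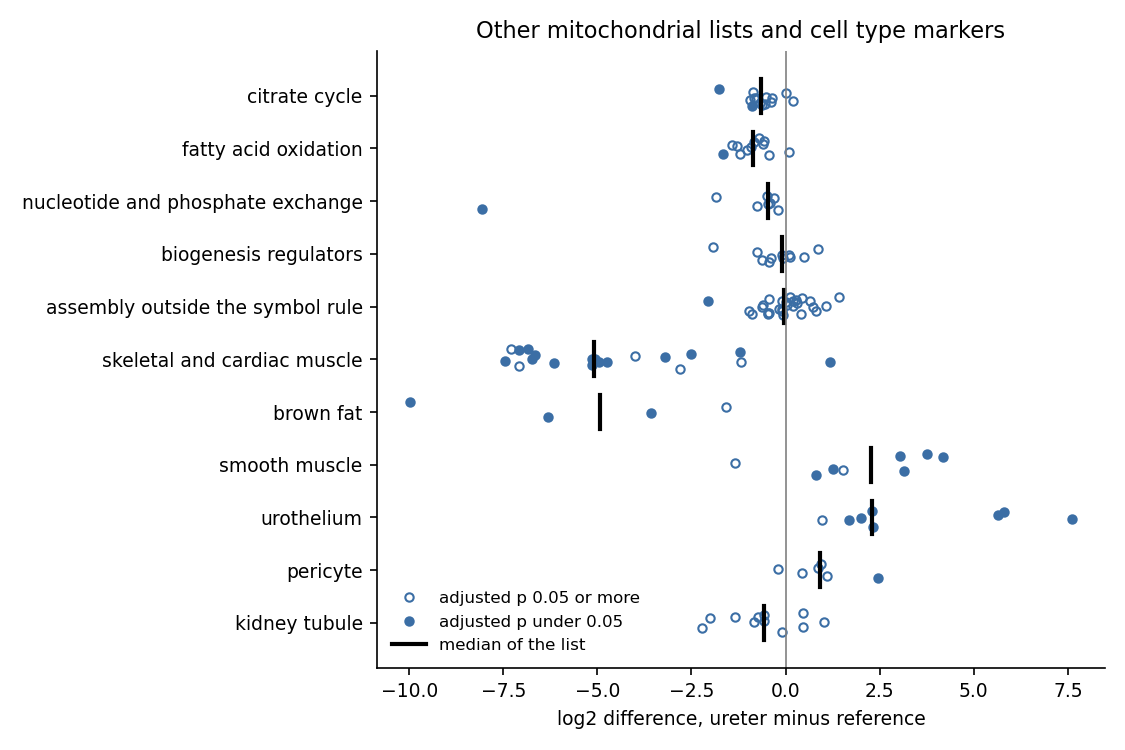
Log2 difference (ureter minus reference) of each tested gene of the other mitochondrial lists and of the cell type markers, filled where the limma adjusted p was under 0.05, with black bars for the list medians. Muscle (-5.10) and brown fat (-4.94) markers lie far left, smooth muscle (2.28) and urothelium (2.31) to the right, and the mitochondrial lists between -0.87 and -0.031, of which the citrate cycle, exchange, biogenesis and other assembly medians turn positive when arrays are median-centred.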

How the data were processed

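The deposited table holds 1 intensity per probe set and array on a linear scale, made by the authors with GCOS, the array maker's software, per the submitters' processing notes; its version, background step and scaling are not given in the sources used here. The mean of each array after trimming 2% at each end was 1500. Symbols came from the platform annotation: 34945 probe sets carried 1 symbol, 932 several and 9160 none.

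From these intensities, log2(intensity + 12.23) was taken, with the 10th percentile of all values as offset, and the 4 arrays were quantile normalized. Then 64 controls and the dimmest 40% of probe sets, by the average of both group means, were left out. A fold on this scale understates changes of dim probe sets. The two-sided test of ureters against the reference used limma 3.58.1 in R 4.3.3 (lmFit, then eBayes with trend), and p-values were adjusted by Benjamini-Hochberg over 27022 probe sets, with a threshold of 0.05. The code was tested on simulated data. Where every array of the dimmer group was at background, a fold is given as "at least", against the higher of that background and the measured level. With 3 arrays against 1, the number of arrays limits the precision. Quantile normalization of log2 values with controls was taken after the calls of 4 such forms had been seen, and the other 3 are added alternatives.

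Members and lists were chosen with earlier results of these data known. Named genes are those of the isoform pairs, Cox7a2l, the c subunit, Cycs and Sdh genes. Added to them are up to 4 called genes per direction and the 2 with the smallest change in complexes I, III, IV, V and the assembly factors. Genes with opposite calls, the 3 that varied most and up to 2 called genes per direction of each list complete the rule; other genes are marked in the text as picked once their values were known. Motifs were searched in RefSeq promoters (GRCm38.p6). Results were recomputed under 10 other settings of scaling, offset, filter, cross-hybridizing probe sets, intensity trend, probe set averaging and leaving out each ureter.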

Additional observations from a re-analysis of the deposited data

How the results depend on the processing

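No paired analysis was possible because the reference has 1 array. Quantile normalization of linear intensities, with or without controls, and of log2 values without controls, all chosen after seeing the data, changed no call and no direction among the results recomputed. With the scaling as deposited 1 member probe set and 1 gene were called lower (Cox6a2), the gap between the member median and that of all probe sets was -0.485, Uqcrb turned to -0.34 and Ndufaf6 to -0.12, and the within-array shifts turned to -0.421 for Cox4i2 against Cox4i1 and -0.498 for Ndufa4l2 against Ndufa4, from 0.21 and 0.42, the second pair resting on Ndufa4l2 at background. Median-centring gave the same 3 values for the gap and these shifts, because it moves whole arrays only. It also turned the member median to 0.11 and left 18 members (11.2%) with every ureter below the reference, against 17.9% of all probe sets. Median-centring turned the medians of complexes I, II, III, IV and V to 0.146, 0.174, 0.006, 0.029 and 0.089. Among genes it turned Cox8c to 0.079, Cox6a1 to 0.019, Cox7a2 to 0.006, Cox8a to 0.301, Cox4i1 to 0.195, Cox6b1 to 0.165, Ndufa4 to 0.526, Atp5g2 to 0.337, Atp5g3 to 0.159, Cycs to 0.219, Sdhc to 0.595, Ndufb3 to 0.698, Uqcrh to 0.668, Atp5c1 to 0.199, Atp5pb to 0.363, Ndufaf5 to 0.672, Ndufab1 to 0.30, Ndufs3 to 0.016, Atp5a1 to 0.122 and Atp5b to 0.071. Cox8b against Cox8a, unmeasured because Cox8b was at background in every ureter, was fitted at -5.299 with an offset of 1, which widens differences of dim probe sets, and -3.662 without probe sets ending in _x_at, where Cox8c against Cox8a turned to 0.687 because another Cox8a probe set stood in. Averaging probe sets by gene called 7 member genes lower, of which Cox7a1, Ndufa9, Ndufb10, Sdhb and Uqcrc1 have a single probe set each. Averaging turned Sdhc to 0.402, Uqcrb to -0.455, Atp5c1 to 0.478 and Ndufab1 to 0.774. Leaving out each ureter gave 0 to 5 member probe sets called lower, 0 to 1 called higher and 0 to 4 genes called lower, with the lowest counts without ureter 3. The shift of Cox4i2 against Cox4i1 then ranged from -0.001 to 0.361 and that of Cox8c against Cox8a from -0.235 to 0.099. The single-gene values that changed sign ranged from -0.244 to 0.03 for Ndufb3, -0.568 to 0.447 for Uqcrh and -0.251 to 0.278 for Ndufaf5, each turned without ureter 2, and from -0.065 to 0.069 for Uqcrb, turned without ureter 3. Except where a reason is given, the cause was not tested. The share of all calls that were higher was 43.7%, against 33.5% as deposited, 48.1% with median-centring and 15.5% without ureter 3. With no filter 422 probe sets were called higher and 711 lower, with no intensity trend 272 and 648, as deposited 444 and 882, and without ureter 3 49 and 268, against 747 and 961. Of 183 member probe sets, 11 were at background on every array, which limits what can be said of them.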
